A study of Mus musculus with 31 samples.

Results

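The 10 amino acid transporter genes described here are Slc7a5, Slc3a2, Slc1a5, Slc1a4, Slc38a1, Slc38a2, Slc7a1, Slc7a3, Slc6a9 and Slc6a6. They were taken as a list of symbols, set with earlier results of these data known, and each had 1 entry in every count table, so 10 genes were followed out of 60172 listed in at least 1 of the 3 tables. The 31 RNA sequencing samples are of Panc02 cells, a murine pancreatic adenocarcinoma line. In the first experiment wild-type (WT) spheroids in Matrigel were kept in control medium, in M0-CM or in M1-CM, with 3 samples each. M0-CM is named for macrophages in the M0 state, and M1-CM for macrophages brought to the M1 state with IFNγ and lipopolysaccharide. In the second, WT and Cxcl5-/- cells were grown in 2D culture or as 3D spheroids in Matrigel, with 3 samples in each of the 4 groups. In the third, WT (2 samples), Cxcl5-/- (2), Hif1αOE Cxcl5-/- (3) and MycOE Cxcl5-/- cells (3) were grown in 3D. Hif1αOE and MycOE cells are Cxcl5-/- cells that overexpress a mutant Hif1α or Myc from a retroviral vector, so both carry the knockout of their comparison group as well. The knockout was made with a lentiviral CRISPR vector, and the sources do not state whether the cells were a single clone. In the overexpression experiment the labels number the cell line differently for each sample, whereas the study's methods name Panc02. The study's methods speak of biological replicates in general, but do not say how the sequenced samples of a group were obtained, so p-values measure the spread between these samples, which may in part be technical.

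Amino acid transporters of the plasma membrane set how much of each amino acid a cell can take up or exchange, and rapidly growing tumour cells depend on them for protein synthesis, nucleotides and redox balance. Slc7a5 (LAT1) carries large neutral amino acids such as leucine in exchange for glutamine, and reaches the membrane only in a dimer with Slc3a2, the heavy chain known as CD98, which also pairs with other light chains. Slc1a5 (ASCT2) exchanges glutamine and small neutral amino acids, and Slc1a4 (ASCT1) alanine, serine and cysteine. Slc38a1 and Slc38a2 (SNAT1 and SNAT2) are sodium-coupled carriers that concentrate glutamine and alanine. Slc7a1 and Slc7a3 (CAT1 and CAT3) carry arginine and lysine, Slc6a9 (GlyT1) carries glycine and Slc6a6 (TauT) carries taurine. Transcription of several of these genes is known to be raised by ATF4 when amino acids run short, and Myc is known to raise glutamine transporters.

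Total counts ranged from 41542533 to 78498230 per sample. Levels are given as CPM, the usual counts normalised to library size, here with edgeR's TMM scaling, and a gene was called when its adjusted p was below 0.05 by edgeR's quasi-likelihood test with Benjamini-Hochberg adjustment over all genes tested in a table. Log2 fold changes and interaction terms stand with their standard error (SE), as value ± SE, and levels with their SD. In the culture experiment the libraries labelled 3D Cxcl5-/- had 40.9 to 65.5 CPM of Cxcl5 transcript against 24.5 to 28.5 in 3D WT. In 2D the level was 34.3 ± 2.70 CPM in Cxcl5-/- and 47.3 ± 1.78 in WT cells (SD, n = 3). The first of these goes against the direction of the label, and this holds for every statement below that draws a direction from these libraries. The study's methods state that the knockout was checked on the protein, by an immunoblot for CXCL5. Transcript counts do not measure the protein, so they cannot show whether the label is right or wrong. The Cxcl5-/- libraries of the overexpression experiment had 36.6 and 40.2 CPM against 64.2 and 67.7 in WT. Hif1a and Myc differed in the same direction in both 3D knockout comparisons. Hif1a was at 159.6 ± 18.0 CPM in the libraries labelled 3D Cxcl5-/- and 369 ± 36.0 in 3D WT of the culture experiment (SD, n = 3), and at 133 and 144 CPM in Cxcl5-/- against 304 and 324 in WT cells of the overexpression experiment. Myc was at 10.4 ± 1.15 against 35.0 ± 1.67 CPM in the former (SD, n = 3) and at 21.1 ± 1.59 against 47.7 ± 2.28 CPM in the latter (SD, n = 2). With overexpression Myc was at 490.2 ± 81.6 CPM (SD, n = 3) in MycOE Cxcl5-/- cells against 21.1 ± 1.59 (SD, n = 2) in Cxcl5-/- cells, and Hif1a was at 243 to 296 CPM in Hif1αOE Cxcl5-/- cells against 133 and 144. Hif1a was also higher in MycOE Cxcl5-/- cells than in Cxcl5-/- cells, at 241 to 271 CPM. The summed level of 6 epithelial markers (Krt8, Krt18, Krt19, Krt7, Epcam and Cdh1) was 839 to 1084 CPM in 3D WT and 190.4 to 222 CPM in the libraries labelled 3D Cxcl5-/-, while 6 fibroblast markers summed to 151 to 162 and to 392 to 450.2 CPM. Such sums follow the most abundant genes, and single markers went both ways. Of 5 fibroblast markers tested 2 were called higher and 2 lower under the 3D knockout label, with a median log2 fold change of -0.60. Of 4 epithelial markers tested 1 was called higher and 3 lower, beside 45% of all genes. Epcam and Cdh1 were at 0 in all 2D libraries and in every library labelled 3D Cxcl5-/-. With overexpression the epithelial sum was 823 to 865 CPM in WT, 258 to 272 in Cxcl5-/-, 687 to 820 in Hif1αOE Cxcl5-/- and 244 to 287 in MycOE Cxcl5-/- cells, and the fibroblast sum was 75.4 to 78.7, 372 to 379, 133 to 168 and 310.1 to 342 CPM. The sum of 5 acinar markers was 9.21 and 13.7 CPM in those Cxcl5-/- libraries, mostly Ctrb1, and under 2 CPM in the other 3 groups. The sum of 8 macrophage markers, mostly Cd14, was 28.1 to 32.4 CPM in 2D WT, 48.8 to 49.5 in 2D Cxcl5-/-, 42.3 to 46.6 in 3D WT and 43.4 to 63.4 in the libraries labelled 3D Cxcl5-/-, with Adgre1 at 0 in all of them. In the overexpression experiment it was 43.4 CPM in both WT, 34.5 and 34.8 in Cxcl5-/-, 44.9 to 63.2 in Hif1αOE Cxcl5-/- and 60.1 to 76.7 in MycOE Cxcl5-/- libraries. All 4 marker sums thus stood apart between Cxcl5-/- and each other group of that experiment, except the epithelial sum with MycOE, which overlapped. The part of these markers in the transporter results was not tested.

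RefSeq promoter windows (GRCm38.p6, 250 bases before a start site) were found for 5 of the 10 members, Slc3a2, Slc1a4, Slc38a2, Slc7a1 and Slc6a9, with 8 windows in all. The 3 shown belong to members that differed in 3D culture and lie outside annotated exons but for 2 bases in that of Slc38a2. They run 5′ to 3′ on the minus strand, and capitals mark matches to the motifs searched. The windows are chr11:20332714-20332963 for Slc1a4, chr15:96699729-96699978 for Slc38a2 and chr5:148399905-148400154 for Slc7a1.
Slc1a4: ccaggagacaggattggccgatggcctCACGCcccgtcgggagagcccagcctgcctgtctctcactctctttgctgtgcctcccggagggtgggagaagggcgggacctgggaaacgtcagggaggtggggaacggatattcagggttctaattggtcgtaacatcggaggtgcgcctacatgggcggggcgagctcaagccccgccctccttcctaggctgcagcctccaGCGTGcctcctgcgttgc
Slc38a2: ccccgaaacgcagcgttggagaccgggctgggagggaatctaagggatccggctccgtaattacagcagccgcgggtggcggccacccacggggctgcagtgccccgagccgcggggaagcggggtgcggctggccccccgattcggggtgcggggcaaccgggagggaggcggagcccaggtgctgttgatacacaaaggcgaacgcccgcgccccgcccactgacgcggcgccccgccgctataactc
Slc7a1: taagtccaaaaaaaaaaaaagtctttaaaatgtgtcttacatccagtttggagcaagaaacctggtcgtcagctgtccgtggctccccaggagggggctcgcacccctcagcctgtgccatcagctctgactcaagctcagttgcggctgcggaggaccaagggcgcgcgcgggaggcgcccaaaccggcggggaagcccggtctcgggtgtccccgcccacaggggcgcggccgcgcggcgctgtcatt
Both strands were searched for the ATF4 and C/EBP core TGATGNAA, the Myc E-box CACGTG and the hypoxia response cores ACGTG and GCGTG, of which ACGTG lies within CACGTG. Over all 32841 windows of this length these letters were found in 3.45%, 6.02%, 16.6% and 28.2%. Of the 3 windows only that of Slc1a4 held a match, GCGTG on both strands, and TGATGNAA and CACGTG were found in none of the 8. Among the windows not shown, that of Slc3a2 held ACGTG and those of Slc6a9 each held GCGTG. A match is a description of the letters and no match concerns these windows only.

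Compared per kilobase of annotated exon, Slc3a2 and Slc38a2 were the most abundant members in 3D WT cells of the culture experiment, at 53.3 ± 1.14 and 52.1 ± 2.14 CPM per kilobase (SD, n = 3), and their levels differed by less than this spread. Slc1a4 followed at 37.8 ± 3.89 and Slc1a5 at 23.3 ± 1.29 CPM per kilobase. Slc7a5 (18.0 ± 2.73) and Slc6a6 (15.8 ± 1.45) did not differ beyond their spread, nor did Slc6a9 (6.15 ± 0.691) and Slc7a1 (5.81 ± 0.253). Slc7a3 and Slc38a1 were near the floor, at 0.146 ± 0.0455 and 0.0365 ± 0.00827 CPM per kilobase. In 2D WT cells Slc38a2 led with 48.1 ± 2.89, Slc7a5 stood above Slc1a4 at 20.8 ± 2.47 against 12.9 ± 0.363 CPM per kilobase, and Slc7a5 did not differ from Slc6a6 (18.9 ± 0.946) beyond the spread. Slc3a2 led in every group of the overexpression experiment. Its level was 64.4 ± 2.94 CPM per kilobase in WT, 28.6 ± 0.0275 in Cxcl5-/-, 45.4 ± 3.69 in Hif1αOE Cxcl5-/- and 61.6 ± 6.25 in MycOE Cxcl5-/- cells (SD, n = 2, 2, 3 and 3). In the conditioned medium experiment Slc1a4 led in every group, with 34.1 ± 11.2 CPM per kilobase in control medium, where Slc38a2 was at 28.8 ± 7.54 and did not differ beyond that spread. The tables were normalized separately, so these levels are not compared between experiments.

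WT cells in 3D had more transcript of the heavy chain Slc3a2, of the exchangers Slc1a5 and Slc1a4 and of Slc38a1 than in 2D, whereas Slc6a6 fell slightly and Slc7a5 was not called. In bulk samples such as these, fewer cells of a type and less RNA per cell cannot be told apart. Slc1a4 was at 51.5, 49.1 and 51.6 CPM in the 3 2D WT samples and at 163, 132 and 149.7 CPM in the 3 3D WT samples. Every 3D sample stood above every 2D sample, and the log2 fold change was 1.55 ± 0.09 (edgeR, adjusted p = 1.51e-08). Slc1a5 was at 64.1, 59.6 and 64.6 CPM in 2D and at 103, 95.9 and 92.9 CPM in 3D, again without overlap, with a log2 fold change of 0.63 ± 0.08 (edgeR, adjusted p = 2.73e-05). Slc3a2 was at 132, 113 and 140.3 CPM in 2D and at 187, 193 and 185 CPM in 3D, with a log2 fold change of 0.55 ± 0.09 (edgeR, adjusted p = 0.000264). Its partner Slc7a5 was at 87.5, 73.3 and 70.5 CPM in 2D and at 78.2, 58.9 and 63.2 CPM in 3D, and the groups overlapped (log2 fold change -0.21 ± 0.13 by edgeR, adjusted p = 0.226). Slc38a1 was rare, with 0 to 7 counts per 2D WT library and 20 to 38 counts per 3D WT library (log2 fold change 3.76 ± 0.82 by edgeR, adjusted p = 0.00272), and at such counts the fitted size depends on the prior count. Slc6a6 was at 153 to 169 CPM in 2D and at 120.5 to 145 CPM in 3D, a log2 fold change of -0.26 ± 0.09 (edgeR, adjusted p = 0.0388) that was lost when any of 5 of the 6 samples was left out. Slc38a2 (log2 fold change 0.12), Slc7a1 (-0.05), Slc7a3 (0.14) and Slc6a9 (0.29) were not called. In all, 4 members rose and 1 fell, and 44.3% of the 21367 genes tested were called in this comparison. With DESeq2 size factors 5 members were called, all higher in 3D, since Slc6a9 entered (0.36) and Slc6a6 dropped out (-0.19). With library totals in place of TMM scaling 4 were higher and 2 lower, Slc7a5 and Slc6a6, while the median of all genes moved from 0.002 to -0.21. Relative to that median Slc7a5 was at -0.21 with TMM and -0.22 with library totals. Changing the scaling moves all genes nearly alike, so here and below such values cannot show which scaling is right.

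**Figure D1:**
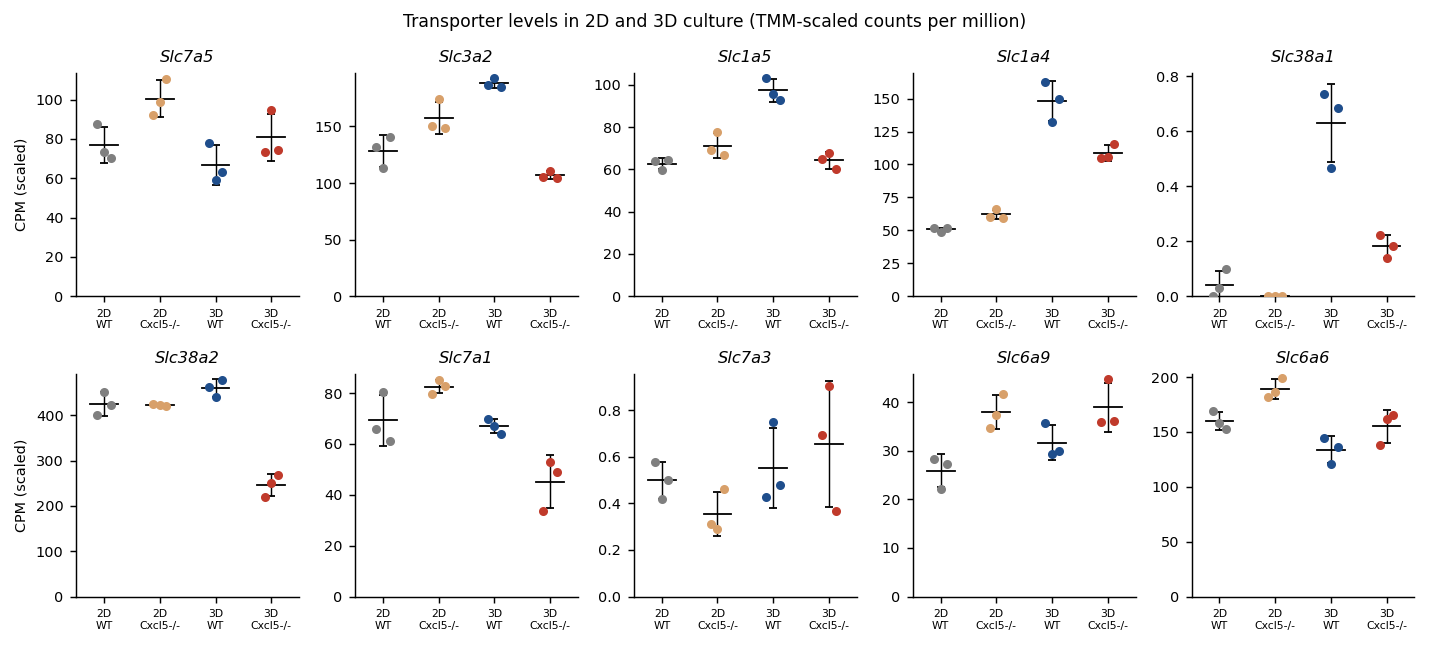
CPM (counts scaled by TMM) of the 10 transporters in each library of the culture experiment (vertical axes from 0, a scale for each gene). Points are libraries, and bars give the mean and SD of 3 samples. Slc1a4 lies at 49.1 to 51.6 CPM in 2D WT and at 132 to 163 CPM in 3D WT, and Slc38a2 at 220.0 to 268 CPM in the libraries labelled 3D Cxcl5-/- against 441 to 479 CPM in 3D WT.

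In 2D culture Slc6a9 was the single member called between Cxcl5-/- and WT cells. The glycine transporter was at 28.4, 22.1 and 27.3 CPM in 2D WT and at 34.7, 37.4 and 41.7 CPM in 2D Cxcl5-/- cells, with no overlap and a log2 fold change of 0.55 ± 0.12 (edgeR, adjusted p = 0.015). The call was lost without 2D WT sample 2 (log2 fold change 0.47) or without 2D Cxcl5-/- sample 3 (0.50). Slc6a9 overlaps Ccdc24 and B4galt2 on the other strand. The library kit marks strand, but whether the counting used it is not stated. Ccdc24 was at 5.61 ± 1.69 CPM in 2D WT and 7.76 ± 1.44 CPM in 2D Cxcl5-/- cells (SD, n = 3), and B4galt2 at 40.5 ± 3.98 and 46.2 ± 2.57 CPM. Of all genes tested 7.03% were called in this comparison, against 1 of 10 members. Slc7a5 (log2 fold change 0.38), Slc3a2 (0.29), Slc1a4 (0.29), Slc1a5 (0.18) and Slc6a6 (0.24) were not called, with adjusted p between 0.064 and 0.256 by edgeR. Each stood higher in every 2D Cxcl5-/- sample than in every 2D WT sample. How many of all genes stood apart in this way was counted in no comparison, so separation of groups is a description throughout. DESeq2's Wald test called 4 members, all higher, Slc1a4, Slc3a2, Slc7a5 and Slc6a9. Slc38a1 had 0 counts in all 3 2D Cxcl5-/- libraries and 0 to 7 in 2D WT, so no fold is given. Without 2D WT sample 1 it was called lower (adjusted p = 0.0486).

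In spheroids, Slc3a2, Slc38a2, Slc1a5, Slc7a1 and Slc1a4 were lower under the knockout label than in 3D WT, and none of the 10 was called higher. Slc38a2, the glutamine and alanine carrier, was at 462, 441 and 479 CPM in 3D WT and at 220.0, 251 and 268 CPM under the knockout label, a log2 fold change of -0.90 ± 0.09 (edgeR, adjusted p = 1.98e-06). Slc3a2 was at 187, 193 and 185 CPM and at 106, 111 and 105 CPM (log2 fold change -0.81 ± 0.09 by edgeR, adjusted p = 1.09e-05). The 2 groups did not overlap for either gene. Slc1a5 was at 103, 95.9 and 92.9 CPM in 3D WT and at 64.8, 67.9 and 60.0 CPM under the knockout label (-0.60 ± 0.08 by edgeR, adjusted p = 5.36e-05). Slc7a1, the arginine carrier, was at 69.9, 67.1 and 64.1 CPM and at 33.4, 53.0 and 49.1 CPM (-0.57 ± 0.14 by edgeR, adjusted p = 0.00526), and Slc1a4 at 163, 132 and 149.7 CPM and at 105, 106 and 116 CPM (-0.44 ± 0.09 by edgeR, adjusted p = 0.000932). Their groups did not overlap either. Slc7a5 was at 78.2, 58.9 and 63.2 CPM in 3D WT and at 73.4, 94.5 and 74.2 CPM under the knockout label, so that it overlapped and was not called (log2 fold change 0.27 ± 0.13 by edgeR, adjusted p = 0.107). The log2 fold changes of Slc6a9 (0.30) and Slc6a6 (0.21) were positive, with adjusted p of 0.0678 and 0.0801 by edgeR. Slc7a5 (0.38) and Slc6a9 (0.37) were called higher without 3D WT sample 1, and Slc6a6 (0.26) without sample 1 of the knockout label. Slc38a1 had 20 to 38 counts in 3D WT and 8 to 14 under the knockout label, without overlap (log2 fold change -1.79 ± 0.72 by edgeR, adjusted p = 0.0632), and Slc7a3 was at 0.366 to 0.901 CPM in both groups. The 5 members called compare with 45% of all genes called. The median log2 fold change was -0.51 over the 10 members and -0.04 over all genes tested. With library totals in place of TMM the median of all genes moved from -0.04 to 0.35 and the split moved from 0 higher and 5 lower to 3 higher and 2 lower, while leaving out the low-count filter, or requiring 10 counts in every sample, gave 3 higher and 5 lower. With library totals Slc3a2 (-0.42) and Slc38a2 (-0.50) remained lower and Slc7a5, Slc6a9 and Slc6a6 were called higher, whereas Slc1a5, Slc1a4 and Slc7a1 were no longer called. Relative to the median of all genes, log2 fold changes with TMM and with library totals were -0.56 and -0.56 for Slc1a5. They were -0.41 and -0.40 for Slc1a4, -0.53 and -0.51 for Slc7a1, and 0.31 and 0.33 for Slc7a5. This likeness follows from how the scaling works and does not show which of the calls hold. The changes in the epithelial and fibroblast marker sums given above go with the same groups, and their part was not tested.

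Whether the genotype effect differed between 3D and 2D was tested as an interaction, the effect in 3D minus that in 2D. It was negative and past the threshold for Slc3a2 (-1.11 ± 0.13 by edgeR, adjusted p = 5.19e-05), Slc38a2 (-0.90 ± 0.12 by edgeR, adjusted p = 0.000138), Slc7a1 (-0.82 ± 0.20 by edgeR, adjusted p = 0.00861), Slc1a5 (-0.78 ± 0.12 by edgeR, adjusted p = 0.000299) and Slc1a4 (-0.74 ± 0.12 by edgeR, adjusted p = 0.000702). These are log2 differences, and 27.2% of all genes tested were called. With library totals Slc7a1 (-0.43) and Slc1a4 (-0.36) no longer passed, as the median of all genes moved from -0.05 to 0.32. Relative to the median they were at -0.78 and -0.69 with TMM and at -0.75 and -0.69 with library totals. For Slc7a5 the interaction was -0.11 ± 0.19 (edgeR, adjusted p = 0.719), for Slc6a6 -0.02 ± 0.13 (edgeR, adjusted p = 0.933) and for Slc6a9 -0.25 ± 0.18 (edgeR, adjusted p = 0.319). The libraries labelled 3D Cxcl5-/- also differed from 2D Cxcl5-/- cells at 6 members, with 57% of all genes called. Slc7a1 (-0.87, SE 0.14), Slc38a2 (-0.78, SE 0.09), Slc3a2 (-0.56, SE 0.09) and Slc6a6 (-0.28, SE 0.09) fell and Slc1a4 rose (0.81, SE 0.09), as log2 fold changes with adjusted p between 3.28e-06 and 0.02 by edgeR. Slc38a1 rose as well, from 0 counts in each 2D Cxcl5-/- library to 8 to 14 counts, which is at least 3.91-fold against a floor of 3 counts per library. The call of Slc6a6 was lost with library totals or DESeq2 size factors, with no low-count filter or one of 10 counts in every sample, and without 2D Cxcl5-/- sample 3 (log2 fold change -0.24). Slc7a5 was called lower without sample 2 of the knockout label (-0.44), and Slc7a3 higher without sample 3 (1.15). These comparisons share libraries with the previous ones.

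**Figure D2:**
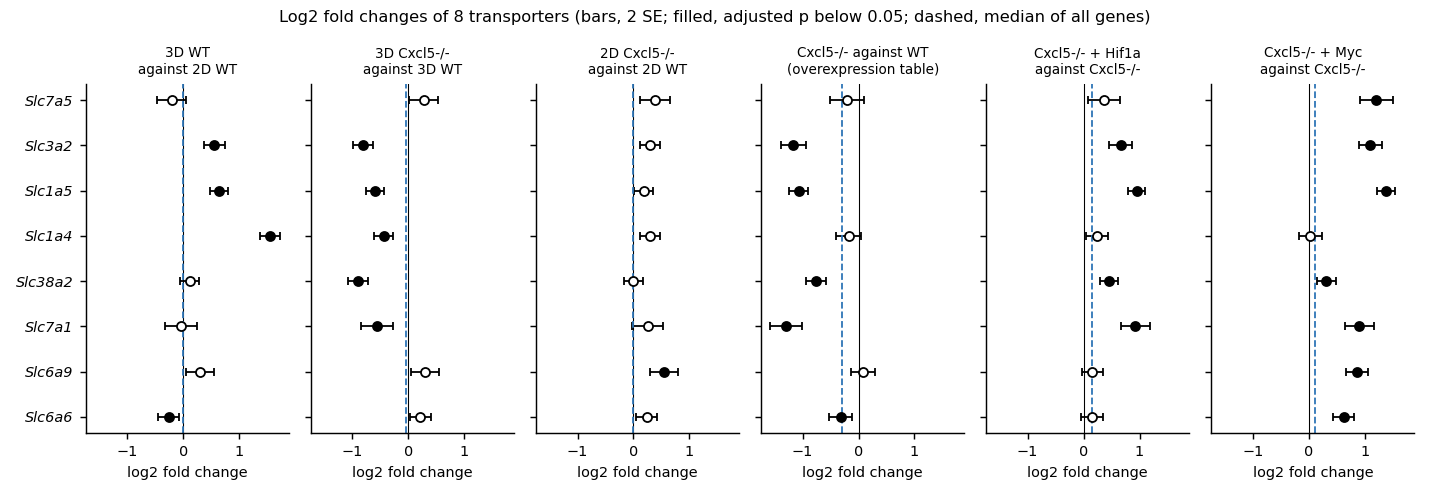
Log2 fold changes of 8 transporters in 6 comparisons, with bars of 2 SE on either side, filled points for an adjusted p below 0.05 by edgeR and a dashed line at the median of all genes tested. Slc38a1 and Slc7a3 are left out for their low counts. Slc3a2, Slc1a5, Slc38a2 and Slc7a1 lie below 0 in both 3D knockout comparisons and above 0 in both overexpression comparisons, while Slc7a5 is called only in the Myc panel.

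In a separate set of libraries, those of the overexpression experiment, 6 members fell between WT and Cxcl5-/- spheroids and none rose. Slc3a2 was at 235 and 220.1 CPM in WT and at 101 CPM in both Cxcl5-/- samples, a log2 fold change of -1.17 ± 0.11 (edgeR, adjusted p = 1.24e-05). Slc1a5 was at 74.4 and 71.7 CPM in WT and at 35.5 and 34.0 CPM in Cxcl5-/- cells (-1.07 ± 0.08 by edgeR, adjusted p = 2.43e-06). Slc7a1 was at 85.1 and 84.8 CPM and at 37.1 and 32.1 CPM (-1.30 ± 0.14 by edgeR, adjusted p = 3.06e-05). For each of these genes both Cxcl5-/- samples lay below both WT samples. Slc38a2 was at 346 and 349 CPM in WT and at 211 and 201 CPM in Cxcl5-/- cells (-0.75 ± 0.09 by edgeR, adjusted p = 6.15e-05). Slc38a1 was at 3.20 and 3.83 CPM (145 and 176 counts) and at 0.394 and 0.162 CPM (19 and 8 counts), the largest fall of the 10 (-3.65 ± 0.47 by edgeR, adjusted p = 0.000104). Slc38a1 shares a long stretch of sequence on the same strand with 4632432E15Rik, which was at 0.373 ± 0.128 CPM in WT and 0.0307 ± 0.014 CPM in Cxcl5-/- cells (SD, n = 2), and reads of the pair may be split between them. Slc6a6 fell by 0.32 on the log2 scale (SE 0.11, adjusted p = 0.0323), from 137 and 145 CPM to 117 and 108 CPM, and this call was lost whenever 1 of the 4 samples was left out. Slc7a5 was at 47.2 and 51.0 CPM in WT and at 44.5 and 40.6 CPM in Cxcl5-/- cells (-0.21 ± 0.16 by edgeR, adjusted p = 0.299), and Slc1a4 at 85.2 and 86.4 CPM and at 78.3 and 73.6 CPM (-0.18 ± 0.11 by edgeR, adjusted p = 0.211). Slc6a9 (0.08) and Slc7a3 (0.39) were not called. Of all genes tested 41.9% were called here, against 6 of 10 members. The median log2 fold change was -0.54 over the members and -0.30 over all genes. Relative to that median the log2 fold changes were -0.87 for Slc3a2 and -0.02 for Slc6a6. Here and below the median of all genes depends on the low-count filter. With at least 10 counts in every sample it was -0.014 in this comparison, and Slc6a6 was still called lower. Values relative to the median therefore do not show that a member is unchanged.

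In Hif1αOE Cxcl5-/- cells 5 members were higher than in Cxcl5-/- cells, Slc1a5, Slc7a1, Slc3a2, Slc38a2 and Slc38a1, and none was lower. The samples hold no line with an empty vector, so vector and selection cannot be told apart from the gene overexpressed. Here and below, raised or lowered names a difference from Cxcl5-/- cells and not its cause. Slc1a5 was at 70.8, 65.5 and 65.7 CPM in Hif1αOE Cxcl5-/- cells against 35.5 and 34.0 CPM in Cxcl5-/- cells (log2 fold change 0.95 ± 0.08 by edgeR, adjusted p = 3.68e-06). Slc7a1 was at 74.4, 53.3 and 68.5 CPM against 37.1 and 32.1 CPM (0.92 ± 0.13 by edgeR, adjusted p = 0.000196), and Slc3a2 at 164, 171 and 146 CPM against 101 CPM in both Cxcl5-/- samples (0.66 ± 0.10 by edgeR, adjusted p = 0.000379). For these 3 genes the groups did not overlap. Slc38a2 was at 294, 288 and 264 CPM against 211 and 201 CPM (0.45 ± 0.08 by edgeR, adjusted p = 0.00118), a call that library totals did not give (0.23, adjusted p = 0.103), where the median of all genes was 0.00 in place of 0.16. Slc38a1 had 48 to 72 counts per library against 8 and 19 (1.92 ± 0.43 by edgeR, adjusted p = 0.0048), and was not called without Cxcl5-/- sample 2 (1.43, adjusted p = 0.0615). Slc7a5 was at 62.2, 43.0 and 59.6 CPM against 44.5 and 40.6 CPM, and the groups overlapped through Hif1αOE Cxcl5-/- sample 2 (0.37 ± 0.14 by edgeR, adjusted p = 0.0676). Without that sample the log2 fold change of Slc7a5 was 0.52 with an adjusted p of 0.00194 by edgeR, and Slc6a6 was called as well (0.24, adjusted p = 0.0493). Slc1a4 (0.24, adjusted p = 0.0936), Slc6a9 (0.15), Slc6a6 (0.15) and Slc7a3 (-0.12) were not called. The 5 of 10 members compare with 35.5% of all genes called, and the member median of 0.41 with 0.16 over all genes. Against WT, Hif1αOE Cxcl5-/- cells remained lower in Slc3a2 (-0.51), Slc38a1 (-1.73), Slc38a2 (-0.30) and Slc7a1 (-0.38), with adjusted p between 0.00436 and 0.0483 by edgeR and 24.2% of all genes called. When WT sample 1 was left out only Slc38a1 remained called, and without WT sample 2 only Slc3a2. The call of Slc7a1 was also lost without Hif1αOE Cxcl5-/- sample 2 or 3.

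With Myc overexpressed in Cxcl5-/- cells 7 members rose, Slc1a5, Slc7a5, Slc3a2, Slc7a1, Slc6a9, Slc6a6 and Slc38a2, and none fell. Slc7a5 was at 107, 97.4 and 90.3 CPM against 44.5 and 40.6 CPM in Cxcl5-/- cells (log2 fold change 1.20 ± 0.15 by edgeR, adjusted p = 5.35e-05). Slc1a5, the glutamine exchanger, was at 93.5, 89.3 and 89.3 CPM against 35.5 and 34.0 CPM (1.38 ± 0.08 by edgeR, adjusted p = 2.67e-07), and Slc3a2 at 241, 213 and 198 CPM against 101 CPM in both (1.10 ± 0.10 by edgeR, adjusted p = 8.3e-06). Slc6a9 was at 70.8, 64.6 and 65.8 CPM against 34.2 and 39.4 CPM (0.87 ± 0.10 by edgeR, adjusted p = 2.65e-05). Slc7a1 was at 64.4, 62.0 and 67.4 CPM against 37.1 and 32.1 CPM (0.90 ± 0.13 by edgeR, adjusted p = 0.000184), and Slc6a6 at 164, 179 and 176 CPM against 117 and 108 CPM (0.62 ± 0.10 by edgeR, adjusted p = 0.00035). The groups stood apart for all 6 of these genes. Slc38a2 was at 242, 261 and 267 CPM against 211 and 201 CPM (0.32 ± 0.08 by edgeR, adjusted p = 0.00941), but with library totals its log2 fold change was -0.02 (adjusted p = 0.93), and without Cxcl5-/- sample 2 it missed the threshold (0.29, adjusted p = 0.102). With library totals the all-gene median was -0.11 in place of 0.11, and relative to it Slc38a2 was at 0.21 with TMM and 0.09 with library totals. With library totals Slc6a6 was not called either (0.29, adjusted p = 0.126) and Slc7a3 was called lower, which gave 5 higher and 1 lower. Slc1a4 was at 82.5, 72.3 and 78.0 CPM against 78.3 and 73.6 CPM, with overlap (0.03 ± 0.10 by edgeR, adjusted p = 0.849). Slc38a1 had 20 to 31 counts against 8 and 19 (0.92 ± 0.44 by edgeR, adjusted p = 0.119), and was called without Cxcl5-/- sample 1 (1.70, adjusted p = 0.044). Of all genes tested 39.6% were called, and the median log2 fold change was 0.88 over the members and 0.11 over all genes. Epithelial markers summed to 244 to 287 CPM in MycOE Cxcl5-/- cells and to 258 to 272 CPM in Cxcl5-/- cells, ranges that overlap. The other marker sums did not overlap. Fibroblast markers summed to 310.1 to 342 against 372 to 379 CPM, acinar markers to 0.296 to 0.413 against 9.21 and 13.7 CPM, and macrophage markers to 60.1 to 76.7 against 34.5 and 34.8 CPM, and their part in the result was not tested. Slc7a5 lies within the span of Gm20388, which is annotated on the other strand and was not analysed here, so the limit on strand given for Slc6a9 holds for Slc7a5 too. It also holds for Slc6a6, which overlaps 4930517G19Rik and Gm44981 on the other strand. Slc6a6 overlaps Gm45828 on its own strand as well, where strand cannot separate the reads. These genes were not analysed here either.

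**Figure D3:**
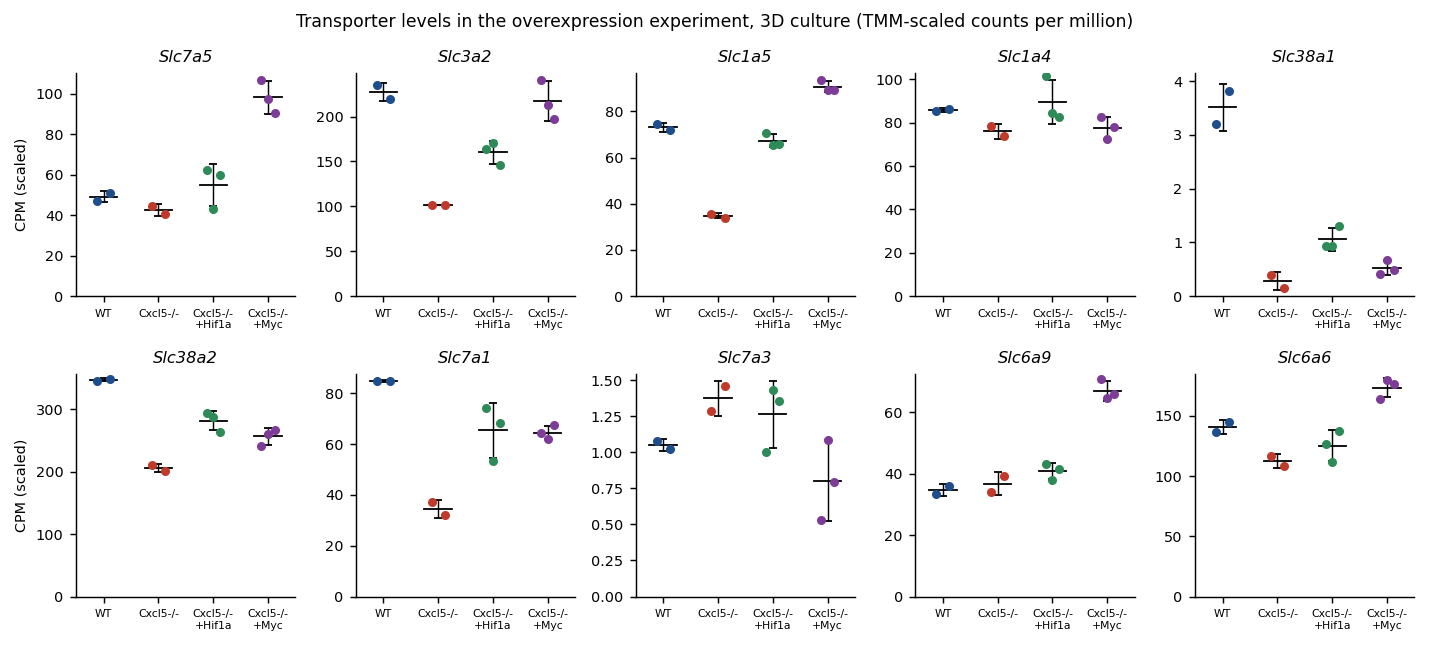
CPM (counts scaled by TMM) of the 10 transporters in each library of the overexpression experiment, all in 3D culture (vertical axes from 0, a scale for each gene). Points are libraries, and bars give the mean and SD of 2 or 3 samples. Slc7a5 lies at 90.3 to 107 CPM in MycOE Cxcl5-/- cells and at 40.6 to 62.2 CPM in the other groups, and Slc1a5 at 34.0 and 35.5 CPM in Cxcl5-/- cells and at 65.5 to 93.5 CPM elsewhere.

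The 2 overexpressing lines were compared directly. Slc7a5 (log2 difference 0.84 ± 0.13 by edgeR, adjusted p = 0.000757), Slc6a9 (0.71 ± 0.08 by edgeR, adjusted p = 0.000126), Slc6a6 (0.47 ± 0.09 by edgeR, adjusted p = 0.0026), Slc3a2 (0.44 ± 0.09 by edgeR, adjusted p = 0.00503) and Slc1a5 (0.43 ± 0.07 by edgeR, adjusted p = 0.000783) were higher in MycOE than in Hif1αOE Cxcl5-/- cells, with no overlap between the groups. Of all genes tested 19.3% were called, against 5 of 10 members, and Slc6a6 was not called with library totals (0.35, adjusted p = 0.0772). For Slc7a1 (-0.02 ± 0.11 by edgeR, adjusted p = 0.957) and Slc38a2 (-0.14 ± 0.07 by edgeR, adjusted p = 0.24) the groups overlapped. Slc38a1 was lower in every MycOE sample (-0.99, SE 0.35), with an adjusted p of 0.0755 by edgeR. Against WT, MycOE Cxcl5-/- cells had more Slc7a5 (1.00 ± 0.15 by edgeR, adjusted p = 0.000433) and Slc6a9 (0.95 ± 0.10 by edgeR, adjusted p = 3.54e-05), and less Slc38a1 (-2.72 ± 0.38 by edgeR, adjusted p = 0.000319) and Slc38a2 (-0.44 ± 0.08 by edgeR, adjusted p = 0.00201). Slc1a5 (0.31), Slc6a6 (0.30) and Slc7a1 (-0.39) were called as well, which made 4 higher and 3 lower with 31.8% of all genes called. The calls of Slc1a5 and Slc6a6 were lost with DESeq2 size factors or library totals, which gave 2 higher and 3 lower and 2 higher and 5 lower, and 4 calls in all were left when either WT sample was dropped. The call of Slc7a1 was lost without any 1 MycOE Cxcl5-/- sample as well, and that of Slc6a6 without sample 2 or 3. Slc3a2 was at 241, 213 and 198 CPM in MycOE Cxcl5-/- cells and at 235 and 220.1 CPM in WT, and was not called (-0.07 ± 0.10 by edgeR, adjusted p = 0.644), although library totals placed it lower (-0.36, adjusted p = 0.00825). There the all-gene median was -0.46 in place of -0.17, and relative to the median Slc3a2 was at 0.11 with TMM and 0.10 with library totals. With at least 10 counts in every sample the median was 0.014, and Slc3a2 was not called. Reads of Slc6a9 and its opposite-strand neighbours could not be told apart if strand was not used in counting, and both neighbours were called higher with MycOE than in WT. Ccdc24 was at 10.8 ± 2.23 CPM in MycOE, 7.09 ± 0.729 in Hif1αOE (SD, n = 3), 8.36 ± 2.81 in Cxcl5-/- and 6.17 ± 1.08 in WT cells (SD, n = 2), and B4galt2 at 58.3 ± 4.98, 39.7 ± 1.14, 52.0 ± 4.82 and 22.7 ± 0.686 CPM in the same order. For MycOE against WT the log2 difference was 0.81 ± 0.24 for Ccdc24 and 1.36 ± 0.10 for B4galt2 (adjusted p = 0.0246 and 2.97e-06 by edgeR). Against Hif1αOE it was 0.61 for Ccdc24 (adjusted p = 0.0618) and 0.56 for B4galt2 (adjusted p = 0.000728), and against Cxcl5-/- cells neither was called (0.37 and 0.17, adjusted p = 0.224 and 0.184 by edgeR). The part of these genes in the values of Slc6a9 was not tested.

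No member was called in the conditioned medium experiment. edgeR called 0 of the 9 members tested for M1-CM against control medium and for M1-CM against M0-CM, where 0.0156% of the 19207 genes tested were called, and 0 for M0-CM against control medium, where 0% were called. None reached an unadjusted p below 0.05 in any of these comparisons, and DESeq2 called 0 as well. Slc38a1 was not tested, since it had 0 to 22 counts per library. Log2 fold changes for M1-CM against control medium ran from -0.81 for Slc7a3 to 0.33, with adjusted p of 0.965 to 0.973 by edgeR. The replicates spread widely. Slc7a1 was at 37.8, 16.2 and 24.5 CPM in control medium, at 35.8, 20.3 and 23.4 CPM with M0-CM and at 20.2, 49.3 and 19.6 CPM with M1-CM. Slc7a5, at 49.3, 74.5 and 43.8 CPM with M1-CM, and Slc38a2, at 243, 368 and 244 CPM, were likewise highest in M1-CM sample 2, which stands apart from its group. The count was 0 without that sample as well. Cxcl5 itself was at 662 to 719 CPM with M1-CM and 78.1 to 117 CPM in control medium.

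Ratios of a pair of transporters within a library do not depend on the scaling. The ratio of Slc7a5 to its heavy chain Slc3a2, per kilobase, was 0.631, 0.617 and 0.478 in 2D WT, 0.583, 0.541 and 0.711 in 2D Cxcl5-/-, 0.398, 0.291 and 0.325 in 3D WT and 0.662, 0.811 and 0.675 in the libraries labelled 3D Cxcl5-/-. Every 3D WT sample stood below every other sample of the experiment. The log2 difference of the ratio was -0.77 for 3D WT against 2D WT and 1.09 for the libraries labelled 3D Cxcl5-/- against 3D WT, each with p = 0.1 in a two-sided exact permutation test, the smallest p that 3 against 3 samples can give. The ratio was 0.191 and 0.221 in WT, 0.419 and 0.382 in Cxcl5-/-, 0.361, 0.240 and 0.390 in Hif1αOE Cxcl5-/- and 0.421, 0.435 and 0.434 in MycOE Cxcl5-/- cells of the overexpression experiment. Both WT samples were the lowest, and the log2 difference of 0.96 between Cxcl5-/- and WT had p = 0.333 by the exact permutation test, the smallest possible with 2 against 2. The ratio of the related exchangers Slc1a4 and Slc1a5 behaved otherwise. It was 0.849 to 0.875 in 2D WT, 0.905 to 0.952 in 2D Cxcl5-/-, 1.47 to 1.71 in 3D WT and 1.66 to 2.05 in the libraries labelled 3D Cxcl5-/-, so that all 3D samples stood above all 2D samples. Among the overexpression libraries it was 1.22 and 1.28 in WT, 2.34 and 2.30 in Cxcl5-/-, 1.34 to 1.52 in Hif1αOE Cxcl5-/- and 0.861 to 0.939 in MycOE Cxcl5-/- cells, with no overlap between any 2 groups. MycOE against Hif1αOE Cxcl5-/- cells differed by -0.63 on the log2 scale (two-sided exact permutation p = 0.1, the smallest possible).

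**Figure D4:**
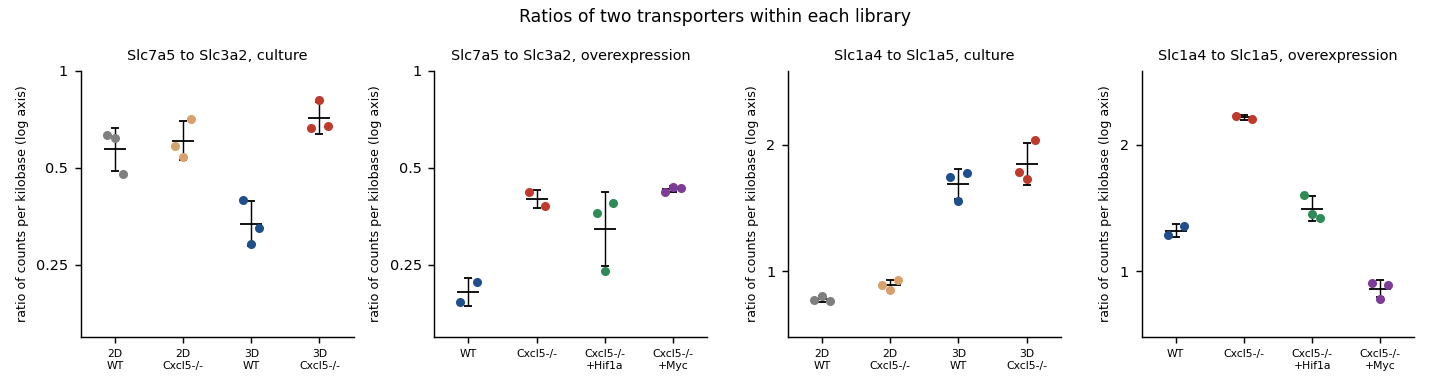
Ratio of Slc7a5 to Slc3a2 and of Slc1a4 to Slc1a5 in each library, per kilobase of annotated exon, on log axes. Points are libraries, and bars give the geometric mean and the SD of the log2 ratio. The Slc7a5 to Slc3a2 ratio is lowest in WT cells in 3D, at 0.291 to 0.398 in the culture experiment and at 0.191 and 0.221 in the overexpression experiment.

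Lists of genes from the same pathway, 6 in all, were followed beside the members. The list of the ATF4 response to amino acid shortage has 22 genes, none of them a member: known targets of ATF4, Atf4 itself and Eif2ak4, the amino acid sensing kinase GCN2 that acts upstream. Under the 3D knockout label 18 were lower and 0 higher, where 45% of all genes were called, with a median log2 fold change of -0.95 against -0.04 over all genes. The largest falls with separated groups were those of Cth, an enzyme of cysteine synthesis (-2.51, SE 0.17), and Eif4ebp1, an inhibitor of cap-dependent translation (-1.65, SE 0.10), with adjusted p of 7.51e-08 and 5.14e-08 by edgeR. In the second knockout comparison, with 41.9% of all genes called, 18 of the 22 were lower and 2 higher in Cxcl5-/- than in WT cells, led by Chac1, which degrades glutathione (-3.38, SE 0.14), and the pseudokinase Trib3 (-3.27, SE 0.15). Hif1αOE raised 16 and lowered 2, beside 35.5% of all genes called, and MycOE raised 20 and lowered 1, beside 39.6%. The largest rises were those of Phgdh (1.76, SE 0.15) and Psat1 (1.68, SE 0.10), enzymes of serine synthesis, with Hif1αOE, and of Psat1 (2.35, SE 0.10) and Trib3 (2.09, SE 0.13) with MycOE. The exceptions were the lipoprotein receptor Vldlr, which rose by 1.24 in Cxcl5-/- cells and fell by 1.20 with Hif1αOE and by 1.22 with MycOE, and Eif2ak4, which rose by 0.54 in Cxcl5-/- cells and fell by 0.74 with Hif1αOE. In 2D culture 8 of the 22 were higher and 1 lower in Cxcl5-/- cells, with 7.03% of all genes called.

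The other plasma membrane amino acid transporters were called in both directions in both knockout comparisons. Of 19 tested in the culture experiment 7 were higher and 3 lower under the 3D knockout label (45% of all genes), and of 30 tested in the overexpression experiment 8 were higher and 9 lower in Cxcl5-/- than in WT cells (41.9% of all genes). Slc6a12, a betaine and GABA transporter, was at 41.1 CPM against 3.34 CPM in the first (group means, log2 fold change 3.61 ± 0.29 by edgeR, adjusted p = 4.13e-07) and at 25.5 against 1.62 CPM in the second (3.98 ± 0.42 by edgeR, adjusted p = 2.56e-05). With Hif1αOE it was at 1.31 CPM. Slc7a11, which with Slc3a2 forms the cystine and glutamate exchanger, was at 24.5 against 67.4 CPM in the first (-1.46 ± 0.10 by edgeR, adjusted p = 1.39e-07) and at 18.1 against 62.8 CPM in the second (-1.79 ± 0.21 by edgeR, adjusted p = 6.38e-05). With MycOE, Slc7a11 stayed at 17.1 CPM, below WT (-1.88 ± 0.19 by edgeR, adjusted p = 3.15e-05). MycOE raised 5 of the 30 and lowered 4 against Cxcl5-/- cells, beside 39.6% of all genes. The glutamine carrier Slc38a3 reached 20.5 CPM against 0.0519 CPM, and the GABA and taurine carrier Slc6a13 24.3 against 1.69 CPM (3.84 ± 0.72 by edgeR, adjusted p = 0.00117). Slc43a2, a carrier of branched-chain amino acids, fell from 38.5 to 5.98 CPM with Hif1αOE and to 7.30 CPM with MycOE. Among 9 osmolyte and taurine genes, listed for the taurine carrier Slc6a6, 3 were higher and 4 lower under the 3D knockout label, beside the 45% of all genes. Nfat5, the factor that answers osmotic stress, was higher (1.38 ± 0.23 by edgeR, adjusted p = 0.000244), as was Csad, an enzyme of taurine synthesis (1.51 ± 0.12 by edgeR, adjusted p = 2.71e-07), and the chaperone gene Hspa4l was lower (-1.77 ± 0.10 by edgeR, adjusted p = 1.7e-08).

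**Figure D5:**
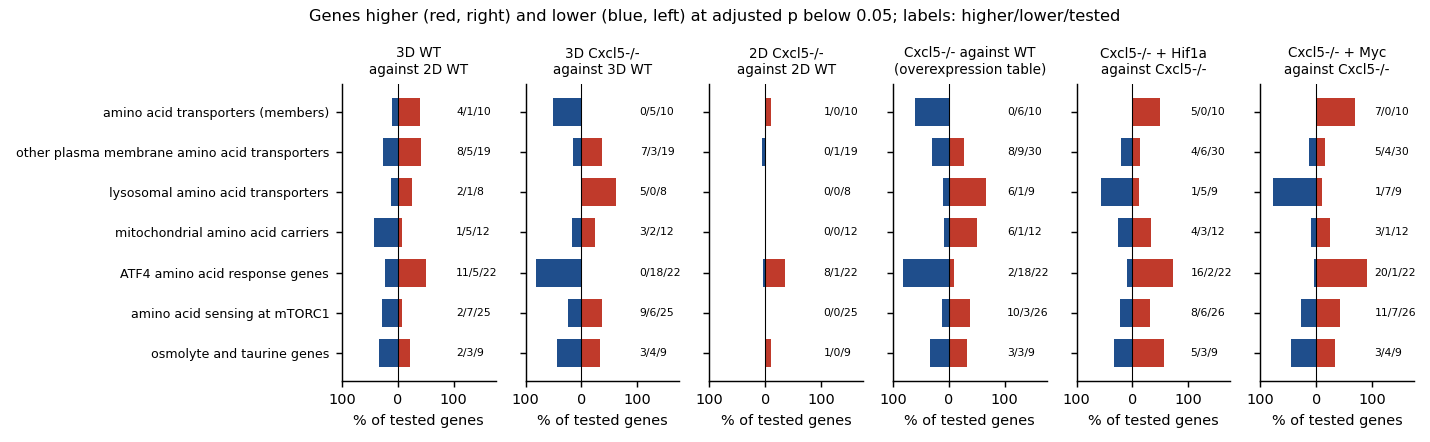
Share of genes called higher (right) and lower (left) at an adjusted p below 0.05 by edgeR, as a percentage of those tested, for the members and 6 lists in 6 comparisons, with the numbers higher, lower and tested beside each bar. The ATF4 list has 0 higher and 18 lower of 22 in the 3D knockout comparison and 20 higher and 1 lower with MycOE, and the members 0 and 5 and 7 and 0 of 10.

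Over the 22 libraries of the culture and overexpression experiments, centred within each table, the likeness of the members' log2 CPM varied. Pearson's r was 0.90 between Slc3a2 and Slc1a5 and 0.83 between Slc38a2 and Slc7a1. It was 0.89 between Slc7a5 and Slc6a6 and 0.84 between Slc7a5 and Slc6a9, and 0.35 between Slc7a5 and Slc3a2. The libraries share groups and scaling, so these values are descriptions. Among the 21058 genes that passed the filter in both tables, the pattern most like that of Slc1a5 was that of Mt2 (r = 0.93), Herpud1 (0.92) and Galk1 (0.91). For Slc7a5 it was that of Septin6 (0.89), Dcaf7 (0.88) and Fbxl14 (0.88), and for Slc6a6 that of Arhgap18 (0.87), Pkp4 (0.85) and Septin6 (0.83).

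Each member is an annotated protein-coding gene of GRCm38, on the minus strand except Slc1a5, Slc6a9 and Slc6a6. Slc7a5 (ENSMUSG00000040010) lies at chr8:121881150-121907694, Slc3a2 (ENSMUSG00000010095) at chr19:8706882-8723369, Slc1a5 (ENSMUSG00000001918) at chr7:16781340-16798274 and Slc1a4 (ENSMUSG00000020142) at chr11:20302180-20332713. Slc38a1 (ENSMUSG00000023169) and Slc38a2 (ENSMUSG00000022462) are neighbours at chr15:96571418-96642913 and chr15:96687392-96699730. Slc7a1 lies at chr5:148327410-148399904, Slc7a3 at chrX:101079210-101086020, Slc6a9 at chr4:117834506-117875198 and Slc6a6 at chr6:91684053-91759066. No member shared a stretch of 50 bases of transcript with another member, while Slc3a2 shared one with 500 other genes and Slc7a1 with 281.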

How the data were processed

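RNA from 31 samples of Panc02 cells was sequenced as paired reads from stranded total RNA libraries. The deposited tables hold whole-number counts per gene that the authors made with HISAT2 and StringTie on mm10 (GRCm38), with no normalization. The strand setting, the annotation release and the step from StringTie to counts are not given in the sources used here. Samples were grouped by their labels, and the 3 tables were analysed separately. Within a table, counts were scaled by TMM, genes were filtered with filterByExpr, and all groups entered 1 fit of edgeR 4.0.16's quasi-likelihood test (R 4.3.3) with Benjamini-Hochberg adjustment over the 19207, 21367 and 28730 genes tested. The SE is the absolute log2 fold change over the square root of F. The call threshold was an adjusted p of 0.05. Levels per kilobase divide CPM by merged exon length (GENCODE vM21). Alternatives were DESeq2 1.42.0, its size factors, library totals, other low-count filters, a fold threshold, a replicate block, only the groups compared, symbol rows summed and leaving out each sample. Scripts were tested on simulated data.

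The members and lists were chosen with earlier results of these data known. Genes of a list were named as the 2 largest rises and 2 largest falls past the threshold with groups that do not overlap and a mean count of at least 50, and for Slc7a5, Slc1a5 and Slc6a6 the 3 other genes with the highest Pearson's r were named. The checks Cxcl5, Hif1a and Myc, genes overlapping a member and marker genes are named besides. Ratios were tested by two-sided exact permutation. Total counts were 43875429 to 78498230 per sample with conditioned medium, 46973008 to 72361685 in the culture experiment and 41542533 to 64872036 in the overexpression experiment. At this depth 8 members had 1067 to 31398 counts per sample, while Slc38a1 had 0 to 176 and Slc7a3 0 to 82, and counting error limits these. No pair of samples agreed within counting noise.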

Additional observations from a re-analysis of the deposited data

Results flagged for a closer look

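The genotype effect on 5 members differed between 3D and 2D culture, tested as the interaction term in edgeR and expressed as the log2 effect in 3D minus that in 2D. The interaction was -1.11 for Slc3a2, whose log2 fold change between the libraries labelled Cxcl5-/- and WT was -0.81 in 3D and 0.29 in 2D. For Slc38a2 it was -0.90, from -0.90 in 3D and -0.01 in 2D, and for Slc7a1 -0.82, from -0.57 and 0.25. For Slc1a5 it was -0.78, from -0.60 and 0.18, and for Slc1a4 -0.74, from -0.44 and 0.29. Under the 3D knockout label the Cxcl5 transcript itself stood higher than in 3D WT, and the directions in 3D rest on that label.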

How the results depend on the processing

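Calls are those of edgeR at an adjusted p of 0.05 unless another tool is named, and 56 member results were called. Requiring an absolute log2 fold change above 1 as well left 2 members for 3D against 2D WT, 0 for each of both knockout comparisons of the culture experiment, 1 for the libraries labelled 3D Cxcl5-/- against 2D Cxcl5-/-, 1 for the interaction, 1 for Hif1αOE and 3 for MycOE against Cxcl5-/-, 0 for MycOE against Hif1αOE, and 1 each for Hif1αOE and MycOE against WT. For Cxcl5-/- against WT of the overexpression experiment it left Slc3a2 (-1.17), Slc1a5 (-1.07), Slc7a1 (-1.30) and Slc38a1 (-3.65). For the 3D knockout comparison 8 members were called with no low-count filter and 8 with at least 10 counts in every sample. For 2D Cxcl5-/- against WT 2 were called with at least 10 counts, 4 by DESeq2's Wald test, 4 with only the groups compared, and 0 to 2 when 1 sample was left out. The interaction kept 3 with library totals. Hif1αOE against WT gave 2 with no filter and 1 to 4 when 1 sample was left out, and MycOE against WT 4 to 6. With library totals the log2 fold change of Slc38a2 for MycOE against Cxcl5-/- turned from 0.32 to -0.0177, while the median of all genes moved from 0.11 to -0.11, and relative to that median it was 0.21 and 0.09. Calls lost numbered 12 with library totals besides that reversal, 6 with no filter, 4 with DESeq2 size factors, 2 by DESeq2's Wald test and 0 with symbol rows summed. Leaving out each sample in turn gave 331 values for the 56 called results, and the call was lost in 33 of these values. Some of those fits left 1 sample in a group. The causes were not tested beyond what each setting changes. Among the 81 member results not called, 48 alternative values of 1206 passed the threshold and 77 changed sign. The labels share replicate numbers between groups. Deviations of same-numbered samples correlated at 0.037, 0.025 and 0.004 on average in the 3 tables, and those of other pairs at -0.019, -0.012 and -0.002. Single same-numbered pairs of the conditioned medium experiment ran from -0.236 to 0.359. With 2 or 3 samples in a group these averages cannot settle whether the numbers pair the samples. With a replicate block MycOE against WT had 6 members called, Slc6a6 being lost (0.26), and no other of the 56 calls changed. Slc38a1, with at most 38 counts per library in the culture experiment, is limited by depth.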

Other observations

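Carriers inside the cell were counted as well. Of 8 lysosomal amino acid transporters tested in the culture experiment 5 were higher and 0 lower under the 3D knockout label, where 45% of all genes were called. Ctns, the lysosomal cystine exporter, was at 20.3 CPM against 9.93 CPM in 3D WT (group means, log2 fold change 1.03, SE 0.10, edgeR adjusted p = 2.62e-06). Of 9 tested in the overexpression experiment 6 were higher and 1 lower in Cxcl5-/- than in WT cells, beside 41.9% of all genes, Ctns among those higher (1.19, SE 0.11, edgeR adjusted p = 1.25e-05). Hif1αOE raised 1 and lowered 5 of the 9 against Cxcl5-/- cells, beside 35.5% of all genes, and MycOE raised 1 and lowered 7, beside 39.6%, with Ctns at 14.0 against 27.4 CPM with MycOE.

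Of 12 mitochondrial carriers 3 were higher and 2 lower under the 3D knockout label, near the 45% of all genes. In the overexpression experiment 6 were higher and 1 lower in Cxcl5-/- than in WT cells, beside 41.9% of all genes. Hif1αOE raised 4 and lowered 3, beside 35.5% of all genes, and MycOE raised 3 and lowered 1, beside 39.6%. Slc25a13, an aspartate and glutamate exchanger, was at 19.2 CPM in Cxcl5-/- and 28.7 CPM in WT cells of the overexpression experiment, at 40.1 CPM with Hif1αOE and at 44.7 CPM with MycOE. Sfxn3, of the sideroflexin family, was at 136.7, 37.3, 59.7 and 35.4 CPM in the same groups. These comparisons share the Cxcl5-/- samples.

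Of 25 genes of amino acid sensing at mTORC1 tested in the culture experiment 9 were higher and 6 lower under the 3D knockout label, with 45% of all genes called. Of 26 tested in the overexpression experiment 10 were higher and 3 lower in Cxcl5-/- than in WT cells, with 41.9% of all genes called. Hif1αOE raised 8 and lowered 6, beside 35.5% of all genes, and MycOE raised 11 and lowered 7, beside 39.6%. The sestrin gene Sesn3 was at 48.8 CPM under the 3D knockout label and 8.42 CPM in 3D WT (group means, log2 fold change 2.54, SE 0.14, edgeR adjusted p = 1.25e-08). Among the overexpression libraries Sesn3 was at 242 CPM in Cxcl5-/-, 13.6 in WT, 21.6 in Hif1αOE and 40.6 in MycOE cells.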
